A study of Mus musculus with 4 samples.

Results

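The 9 genes described here encode proteins of the tight junction and of the epithelial cell surface: Cldn3, Cldn4, Cldn7, Ocln, Tjp1, Tjp3, F11r, Marveld2 and Epcam. They were chosen by symbol, and all 9 were found among the 24421 genes of the table. RNA came from 4T07, a mouse mammary carcinoma cell line labelled with the strain Balb/cfC3H. Libraries labelled Six2 came from 2 samples of 4T07 cells with Six2 overexpression as their genotype, and libraries labelled CTL came from 2 samples of 4T07 control cells. Six2 is a homeobox transcription factor known from the developing kidney. Both groups were grown under the same stated conditions and harvested 48 hours after plating, and the labels used here name no vector, clone or control construct. Values are RPKM, reads per length of the gene (in kilobases) scaled to the depth of the library.

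Six2 itself had 3 reads in Six2 replicate 1, 0 reads in Six2 replicate 2 and 0 reads in both CTL libraries, so the labelled overexpression is not visible in the table, and directions are those of libraries labelled Six2. Read totals recovered from the RPKM steps were 49910629 and 81524250 in the Six2 libraries and 43110985 and 41881864 in the CTL libraries. The libraries held high levels of the simple epithelial keratin Krt8, at 971.5 and 607.2 RPKM in the Six2 libraries and 1059 and 742.1 RPKM in the CTL libraries. Of the 9 epithelial markers, which include Epcam and the 3 claudins, 5 were tested and 1 passed, against 0.0845% of all tested genes called lower. It was the keratin gene Krt7, at 0.467 and 0.634 RPKM in the Six2 libraries and 10.8 and 8.67 RPKM in the CTL libraries (limma-trend adjusted p = 0.0397, voom adjusted p = 0.0504). Without overlap of the groups, 6 of the 9 markers were lower and 0 higher. The shares of genes with 10 or more reads in at least 2 libraries were 26.1% lower and 21.3% higher. Of the 8 leukocyte, 8 fibroblast and 8 endothelial markers, 1 of each list was tested, namely Cd68, Pdgfra and Tie1. The summed level of the leukocyte list was 5.02 to 9.29 RPKM in the Six2 libraries and 7.63 to 12.5 RPKM in the CTL libraries, with Adgre1 at 0 in all 4. Most of it was Cd68, at 9.21 and 4.99 RPKM in the Six2 libraries and 12.4 and 7.41 RPKM in the CTL libraries. The fibroblast list summed to 5.18 to 7.44 RPKM in the Six2 libraries and 5.28 to 9.92 RPKM in the CTL libraries, with Col3a1, Lum and Thy1 at 0. Most of it was Pdgfra, at 6.83 and 4.81 RPKM in the Six2 libraries and 8.85 and 4.78 RPKM in the CTL libraries. Col1a1 (at most 0.109 RPKM) and Pdgfrb (at most 0.279 RPKM) were lower in both Six2 libraries, while the groups of Pdgfra and Dcn overlapped. The endothelial list summed to 1.10 to 1.16 RPKM in the Six2 libraries and 1.30 to 1.62 RPKM in the CTL libraries, with Kdr at 0. Most of it was Tie1, at 1.07 and 0.99 RPKM in the Six2 libraries and 1.11 and 1.47 RPKM in the CTL libraries.

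Tight junctions seal the space between neighbouring epithelial cells near their apical side. Claudins form the strands and set which ions and solutes pass, occludin and tricellulin (the products of Ocln and Marveld2) join those strands, and the zonula occludens proteins made from Tjp1 and Tjp3 tie them to actin. The F11r product, JAM-A, is an adhesion molecule beside the strands, and the Epcam product is an epithelial surface glycoprotein that binds the claudin encoded by Cldn7. In breast tumours, low levels of the claudins made from Cldn3, Cldn4 and Cldn7 are a hallmark of the claudin-low type.

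Promoter sequences of 5 of the genes are shown because Snail and Zeb repressors of epithelial genes bind the E-box CAGGTG. Cldn3, Cldn4 and Epcam had the largest ratios between groups, and F11r and Tjp1 were the abundant genes. The sequences are RefSeq windows on GRCm38.p6 from 250 bases before to 50 after a start that RefSeq gives, written 5′ to 3′ on the gene's strand, and capitals mark CAGGTG or its reverse complement CACCTG. The windows are chr5:134985964-134986263 (plus strand) for Cldn3, chr5:134946885-134947184 (minus) for Cldn4, chr17:87635729-87636028 (plus) for Epcam, chr1:171437311-171437610 (plus) for F11r and chr7:65371195-65371494 (minus) for Tjp1. The Tjp1 window is at an internal start, 156537 bases inside the gene as GENCODE annotates it, and the sequence at its outermost start was not searched; the other 4 starts lie 0 to 26 bases inside their genes.
Cldn3: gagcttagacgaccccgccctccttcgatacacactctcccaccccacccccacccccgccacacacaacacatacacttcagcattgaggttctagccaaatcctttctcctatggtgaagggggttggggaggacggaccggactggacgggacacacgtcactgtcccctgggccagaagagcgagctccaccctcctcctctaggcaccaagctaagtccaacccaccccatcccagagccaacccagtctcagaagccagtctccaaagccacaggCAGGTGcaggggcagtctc
Cldn4: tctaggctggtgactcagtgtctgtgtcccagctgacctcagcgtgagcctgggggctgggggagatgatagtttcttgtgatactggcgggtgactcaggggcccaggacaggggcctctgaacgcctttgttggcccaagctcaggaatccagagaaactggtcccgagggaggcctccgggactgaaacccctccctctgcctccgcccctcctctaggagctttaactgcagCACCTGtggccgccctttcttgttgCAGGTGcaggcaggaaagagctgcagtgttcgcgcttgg
Epcam: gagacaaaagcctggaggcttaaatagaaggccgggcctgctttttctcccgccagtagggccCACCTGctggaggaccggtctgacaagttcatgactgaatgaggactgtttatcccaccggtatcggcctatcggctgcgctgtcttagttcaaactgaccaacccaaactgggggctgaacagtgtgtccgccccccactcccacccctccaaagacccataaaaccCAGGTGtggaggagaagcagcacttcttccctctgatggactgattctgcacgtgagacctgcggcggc
F11r: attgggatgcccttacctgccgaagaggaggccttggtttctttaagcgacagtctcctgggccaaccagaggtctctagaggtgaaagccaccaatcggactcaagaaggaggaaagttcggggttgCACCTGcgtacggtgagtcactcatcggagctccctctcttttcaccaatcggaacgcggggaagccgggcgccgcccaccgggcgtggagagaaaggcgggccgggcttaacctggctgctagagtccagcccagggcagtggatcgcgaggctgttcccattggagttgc
Tjp1: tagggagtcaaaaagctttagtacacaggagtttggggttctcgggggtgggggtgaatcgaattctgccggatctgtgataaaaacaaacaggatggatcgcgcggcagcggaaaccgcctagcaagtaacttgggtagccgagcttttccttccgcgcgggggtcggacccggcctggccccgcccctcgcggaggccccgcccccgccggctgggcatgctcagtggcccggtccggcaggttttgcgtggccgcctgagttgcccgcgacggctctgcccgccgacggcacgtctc

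CAGGTG on either strand was found in the windows of 8 of the 9 genes. It was not in the 1 window searched for Tjp1, at the internal start. Over all 32851 windows of 300 bases, 20.2% held it, and of 27025 genes 22.6% held it in at least 1 window. The 9 genes had 13 windows, since Cldn7, Ocln, Tjp3 and Marveld2 have 2 starts each. The motif began at base 32 after the start of Cldn3, at bases -14 and 12 of Cldn4, at bases -187 and -19 of Epcam and at base -122 of F11r. At Cldn7 it lay in the window of the second start, at bases -97 and -57. The MEF3 site TCAGGTT, which Six2 and its relatives bind, was searched on both strands as well. It was found at Cldn7 alone among the 9 genes, and in 4.73% of all genes. The 2 motifs share the letters CAGGT and differ in the base that follows them. Whether the E-box or the MEF3 site acts on the level of any of the 9 genes in these cells was not tested.

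The 9 genes fell into 2 levels in both groups. F11r and Tjp1 were abundant, above 91% and 86.6% of the 24421 genes by CTL mean. The other 7 genes lay between 0.0404 and 1.65 RPKM in single libraries. Summed over these 7 genes, the level was 1.55 and 0.972 RPKM in the Six2 libraries and 5.17 and 2.56 RPKM in the CTL libraries. The largest parts of the sum in CTL replicate 1 were Cldn3, Ocln and Cldn4, at 1.653, 1.105 and 0.807 RPKM. Sums of other low genes were not compared. In bulk RNA, fewer cells that carry a transcript and less of it per cell cannot be told apart.

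All 9 means were lower in the Six2 libraries, and in 6 genes the 2 groups did not overlap. They did not overlap in Cldn3, Cldn7, Ocln, Tjp1, Tjp3 and Epcam, and they overlapped in Cldn4, F11r and Marveld2. In Cldn7, Ocln and Tjp3 the gap between Six2 replicate 1 and CTL replicate 2 was within counting error, since their 95% Poisson intervals overlapped. In Cldn4, F11r and Marveld2 the Six2 library was the lower at each replicate number, in F11r by as little as 33.4 against 34.2 RPKM. The labels do not pair equal numbers, and the share of all genes with that order was not counted. Of the 12451 genes with 10 or more reads in at least 2 libraries, 26.1% were lower without overlap. The means of 4 genes, Cldn3, Cldn4, Epcam and Tjp3, were at least 2-fold lower, against 5.93% of the 12451 genes. Low genes differ by such folds more often: of the 1931 genes with a mean under 1 RPKM over the 4 libraries, 22.0% were at least 2-fold lower and 29.7% were lower without overlap. The 7 low genes are among these, with 4 at least 2-fold lower and 5 without overlap. Without CTL replicate 1, 2 of the 9 genes, Cldn3 and Epcam, remained at least 2-fold lower.

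**Figure D1:**
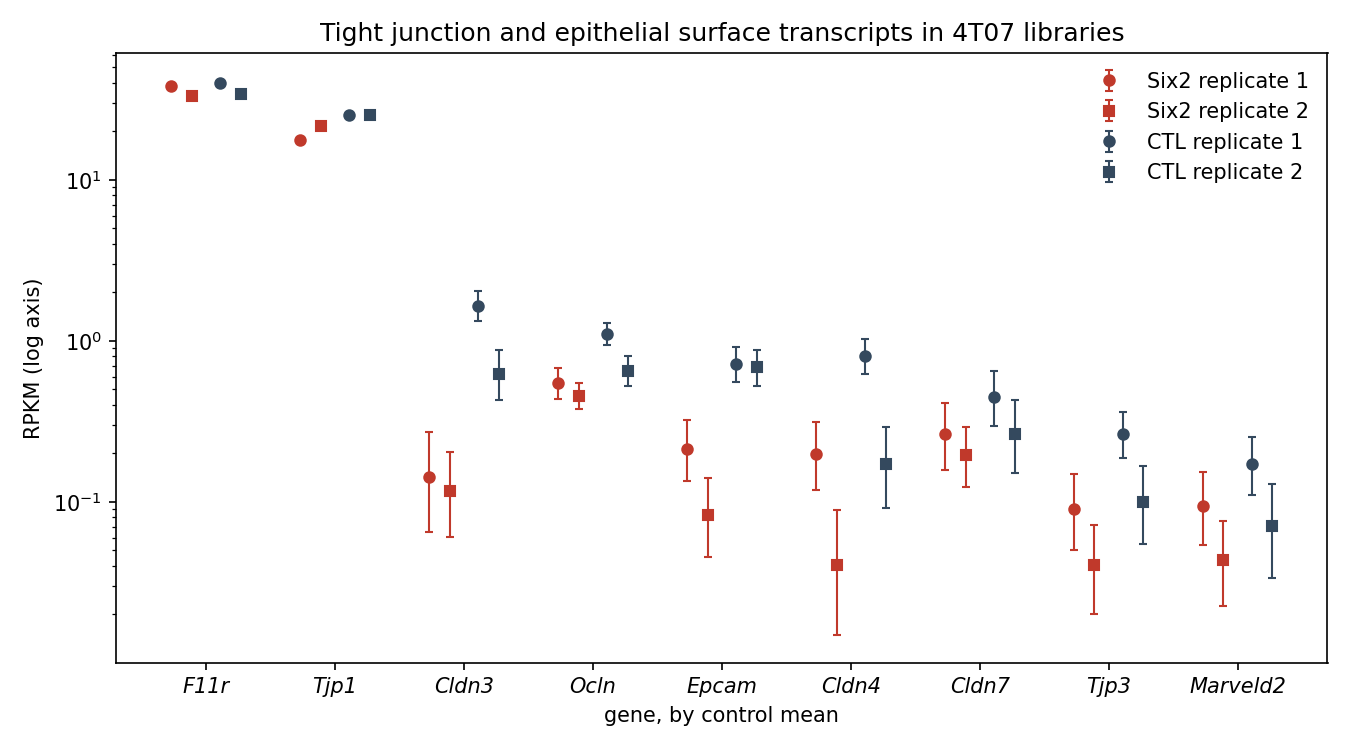
Level of each gene in each library, in RPKM on a log axis, with Six2 libraries in red left of CTL libraries in dark blue, circles for replicate 1 and squares for replicate 2. Bars are exact 95% Poisson intervals of the reads and cover counting error only. F11r and Tjp1 lie above 17 RPKM in every library and the other 7 genes at or below 1.65 RPKM, with Cldn3 and Epcam showing the widest gap between groups.

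Cldn3, which encodes a barrier-forming claudin, was at 0.143 and 0.117 RPKM in the Six2 libraries, from 9 and 12 reads. It was at 1.65 and 0.624 RPKM in the CTL libraries, from 90 and 33 reads. Both CTL libraries lay above both Six2 libraries, and the CTL mean was 8.78 times the Six2 mean. The CTL libraries also lay apart from each other, with 95% Poisson intervals of 1.33 to 2.03 RPKM in replicate 1 and 0.429 to 0.876 RPKM in replicate 2. Cldn3 (ENSMUSG00000070473.4, chromosome 5, 134986214 to 134987472, plus strand) shares 40 exonic bases with the antisense gene Wbscr25 on the opposite strand, which had 0 to 3 reads a library.

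Cldn4 (ENSMUSG00000047501.3, chromosome 5, 134945119 to 134946934, minus strand) lies 39279 bases from Cldn3 with 0 annotated genes between them. It was at 0.199 and 0.0406 RPKM in the Six2 libraries and 0.807 and 0.171 RPKM in the CTL libraries, from 18, 6, 63 and 13 reads. Six2 replicate 1 lay above CTL replicate 2, so the groups overlapped, and in each group replicate 1 was more than 4 times replicate 2. Cldn7 (chromosome 11, 69964779 to 69967885, plus strand) was at 0.262 and 0.194 RPKM in the Six2 libraries and 0.447 and 0.263 RPKM in the CTL libraries. The gap between Six2 replicate 1 and CTL replicate 2 was within counting error, with intervals of 0.158 to 0.409 RPKM and 0.15 to 0.427 RPKM.

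Epcam (ENSMUSG00000045394.9, chromosome 17, 87635979 to 87651129, plus strand) was at 0.214 and 0.0833 RPKM in the Six2 libraries, from 22 and 14 reads. In the CTL libraries it was at 0.72 and 0.684 RPKM, from 64 and 59 reads. The CTL libraries were close to each other, and the CTL mean was 4.72 times the Six2 mean.

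Among the strand proteins with a MARVEL domain, Ocln (chromosome 13, 100496507 to 100552718, minus strand) was at 0.546 and 0.453 RPKM in the Six2 libraries and 1.10 and 0.651 RPKM in the CTL libraries. The Six2 libraries were lower, and the CTL mean was 1.76 times the Six2 mean. The gap between Six2 replicate 1 and CTL replicate 2 was within counting error, with intervals of 0.437 to 0.674 RPKM and 0.521 to 0.803 RPKM. Marveld2 (chromosome 13, 100595957 to 100616971, minus strand), 43238 bases from Ocln with 0 protein-coding genes between them, was at 0.0948 and 0.0435 RPKM in the Six2 libraries and 0.171 and 0.0706 RPKM in the CTL libraries. These groups overlapped, on 10 to 25 reads a library.

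The scaffold gene Tjp1 (ENSMUSG00000030516.14, chromosome 7, 65296165 to 65527781, minus strand), which encodes ZO-1, was at 17.7 and 21.5 RPKM in the Six2 libraries and 25.2 and 25.3 RPKM in the CTL libraries. Both Six2 libraries were lower, and the means were 19.6 ± 2.73 RPKM in the Six2 libraries and 25.2 ± 0.0434 RPKM in the CTL libraries (SD, n = 2 each). The related scaffold gene Tjp3 (chromosome 10, 81273207 to 81291581, minus strand) was at 0.0899 and 0.0404 RPKM in the Six2 libraries and 0.264 and 0.1 RPKM in the CTL libraries, from 15, 11, 38 and 14 reads. Its groups were separated by the small gap between Six2 replicate 1 and CTL replicate 2. That gap was within counting error, with intervals of 0.0503 to 0.148 RPKM and 0.0547 to 0.168 RPKM. Tjp3 shares 40 exonic bases with the opposite-strand gene Apba3, which was at 20.2 RPKM in both Six2 libraries and 15.8 and 16.6 RPKM in the CTL libraries. Whether the counting used strand is not stated in the labels, so reads from the shared bases cannot be assigned.

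F11r (ENSMUSG00000038235.4, chromosome 1, 171437535 to 171464603, plus strand), the most abundant of the 9 genes, was at 38.5 and 33.4 RPKM in the Six2 libraries and 40 and 34.2 RPKM in the CTL libraries. The groups overlapped, and replicate 1 was above replicate 2 in each. More widely, replicate 1 was above replicate 2 in both groups for 8 of the 9 genes, all but Tjp1, and for 45.1% of the 12451 genes with 10 or more reads in at least 2 libraries. Another 36.4% were above in replicate 2 of both groups.

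The order of the mean levels was F11r, Tjp1, Ocln, Cldn7, Epcam, Cldn3, Cldn4, Marveld2 and Tjp3 in the Six2 libraries. In the CTL libraries it was F11r, Tjp1, Cldn3, Ocln, Epcam, Cldn4, Cldn7, Tjp3 and Marveld2. Cldn3 ranked 6 in the Six2 libraries and 3 in the CTL libraries. Neighbours from Cldn3 downward in the CTL order, and from Cldn7 downward in the Six2 order, overlapped in their 2 libraries and did not differ beyond their spread.

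The test across all genes was limma-trend on log2(RPKM + 1), with p-values adjusted by Benjamini-Hochberg and called under 0.05. It covered the 10654 genes that reached 1 RPKM in 2 libraries or more. It called 0.0845% of those genes lower and 0.0282% higher in the Six2 libraries. Tjp1 and F11r were the 2 genes of the 9 that reached the filter, and neither passed, with Tjp1 alone at an unadjusted p under 0.05. By that measure 9.66% of all tested genes were lower and 7.36% higher. Tjp1 differed by -0.355 on the log2(RPKM + 1) scale (95% interval -0.70 to -0.01, limma-trend adjusted p = 0.285). F11r differed by -0.04 (95% interval -0.40 to 0.32, limma-trend adjusted p = 0.904). F11r lies on chromosome 1, whose 583 tested genes had a median difference of 0.32, and with chromosome medians removed its difference was -0.37 (adjusted p = 0.406). Its sign turned without CTL replicate 1 (0.07) and without Six2 replicate 2 (0.06). No label states that the replicates were separate cultures, and the p-values then reflect a spread among libraries that could be technical.

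To reach the low genes, limma's voom was fitted to the recovered reads of the 12451 genes, an alternative chosen after the data were seen. It tested all 9 genes and called 0 of them, and it called 0% of the 12451 genes in either direction. At an unadjusted p under 0.05 it held 3 of the 9 genes, all lower, against 10.6% of all genes lower and 6.75% higher. These were Epcam (log2 CPM difference -2.44, where CPM is reads scaled to library depth without gene length, 95% interval -3.80 to -1.09, voom adjusted p = 0.136), Cldn3 (-2.95, -4.79 to -1.10, voom adjusted p = 0.159) and Tjp1 (-0.37, -0.71 to -0.03, voom adjusted p = 0.261). Cldn4 differed by -2.14, with an interval of -5.09 to 0.81 in this fit on group alone. Fits with a replicate block called more genes, Cldn4 among them in voom, and are described in the closing section. The median difference of the 9 genes was -0.84, beside -0.03 for all 12451 genes. Leaving out 1 library at a time, the difference of Cldn3 ranged from -3.64 to -2.25 and that of Epcam from -3.04 to -1.69, while Cldn4 ranged from -3.22 to -0.90. The value of Cldn4 was -0.90 without Six2 replicate 2 and -1.03 without CTL replicate 1.

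**Figure D2:**
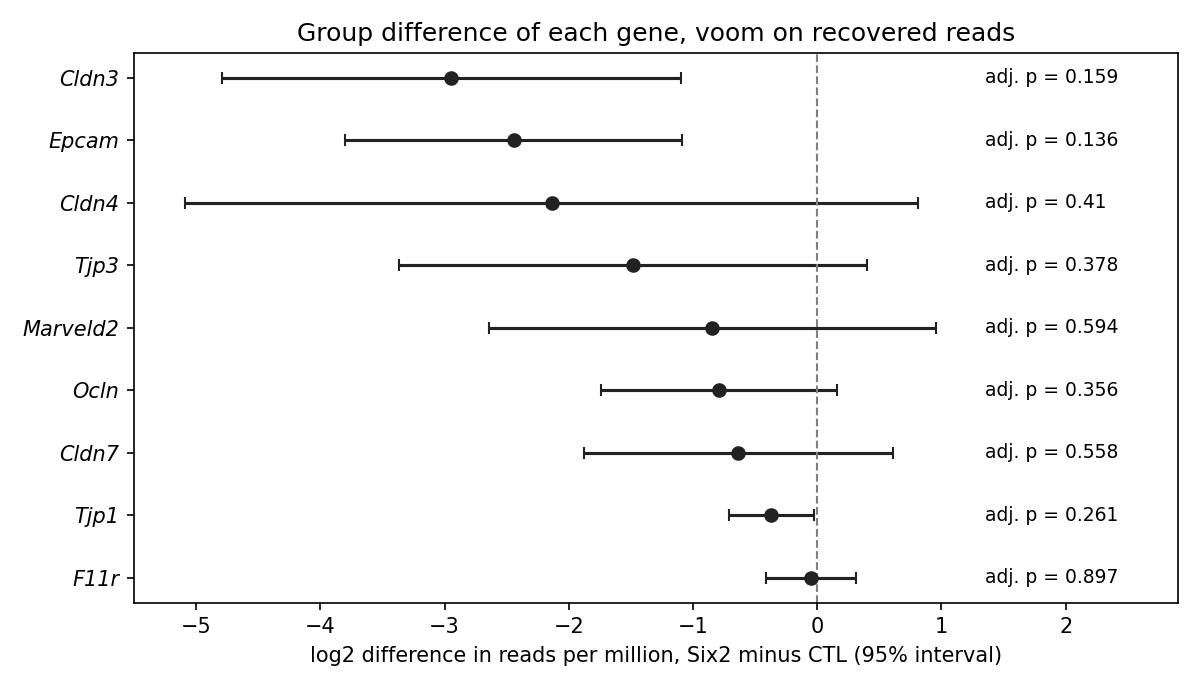
Log2 CPM difference between Six2 and CTL libraries for each of the 9 genes, from voom on recovered reads, with 95% intervals and adjusted p (n = 2 libraries a group). All 9 points lie below 0, and the intervals of Cldn3, Epcam and Tjp1 do not reach 0 before adjustment, while none of the adjusted p-values is under 0.05.

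Of 21 other claudins in the table, 9 were listed at 0 in all 4 libraries and 2 were tested, and neither Cldn9 nor Cldn12 passed. At an unadjusted p under 0.05 limma-trend had 1 lower, and voom 2 of 6. The shares of all genes lower at that threshold were 9.66% in limma-trend and 10.6% in voom. Cldn9 was at 0.472 and 0.91 RPKM in the Six2 libraries and 4.29 and 6.01 RPKM in the CTL libraries, with the groups apart (log2(RPKM + 1) difference -1.86, limma-trend adjusted p = 0.0937). Cldn12, a widely expressed claudin, was at 9.26 and 11.3 RPKM in the Six2 libraries and 12.6 and 14.7 RPKM in the CTL libraries (adjusted p = 0.315). Cldn34c1 was the 1 claudin with 10 or more reads in at least 2 libraries that was higher in both Six2 libraries, at 0.283 and 0.2 RPKM, against 0.0756 and 0.13 RPKM in the CTL libraries; it was named after its values were seen. Including Cldn12, 5 of the 6 other claudins with such reads were lower without overlap, against 26.1% of the 12451 genes and 29.7% of those under 1 RPKM. Higher without overlap were 21.3% of the 12451 genes.

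Among 12 other tight junction membrane genes, 3 were tested and 0 passed. At an unadjusted p under 0.05 limma-trend had 2 lower, and voom 2 of 4, against 9.66% and 10.6% of all genes. Lsr, which encodes the angulin that recruits tricellulin to corners between cells, was at 0.764 and 0.687 RPKM in the Six2 libraries and 4.11 and 2.83 RPKM in the CTL libraries. Cxadr, which encodes the coxsackievirus and adenovirus receptor, was at 10.4 and 9.52 RPKM in the Six2 libraries and 23.7 and 15.6 RPKM in the CTL libraries. Their log2(RPKM + 1) differences were -1.36 and -0.89, with limma-trend adjusted p-values of 0.102 and 0.182, and the groups were apart in both. Marveld1 differed by -0.35 (adjusted p = 0.314). Without overlap, 3 of the 4 genes that voom tested were lower and 1 higher, against 26.1% and 21.3% of the 12451 genes. The higher gene, Ildr2, was named after its values were seen. It was at 0.274 and 0.0297 RPKM in the Six2 libraries and 0.0225 and 0.00867 RPKM in the CTL libraries (voom adjusted p = 0.509).

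The plaque and polarity list had 24 tested genes, of which 0 passed and 20 lay below 0, with a median log2(RPKM + 1) difference of -0.16 beside -0.01 for all tested genes. At an unadjusted p under 0.05, limma-trend had 7 lower and 0 higher, and voom 9 lower and 0 higher of 27. Of all genes, 9.66% were lower and 7.36% higher by that measure in limma-trend, and 10.6% and 6.75% in voom. Cgnl1, which encodes paracingulin, was at 3.80 and 3.07 RPKM in the Six2 libraries and 19.3 and 13.3 RPKM in the CTL libraries (limma-trend adjusted p = 0.0886). The scaffold genes Magi1 and Dlg1 differed by -0.86 and -0.755 (adjusted p = 0.151 and 0.119), again with the groups apart. The polarity gene Pard3 was at 7.61 and 6.86 RPKM in the Six2 libraries and 7.58 and 6.89 RPKM in the CTL libraries, and was named after its values were seen. Ybx3 and Sympk, the most abundant of this list, differed by 0.195 and -0.004. Without overlap, 12 of the 27 genes were lower and 1 higher, against 26.1% and 21.3% of the 12451 genes. The higher gene, Arhgef2, was at 36.8 and 31.7 RPKM in the Six2 libraries and 29.1 and 26.5 RPKM in the CTL libraries (limma-trend adjusted p = 0.342). It was named after its values were seen.

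**Figure D3:**
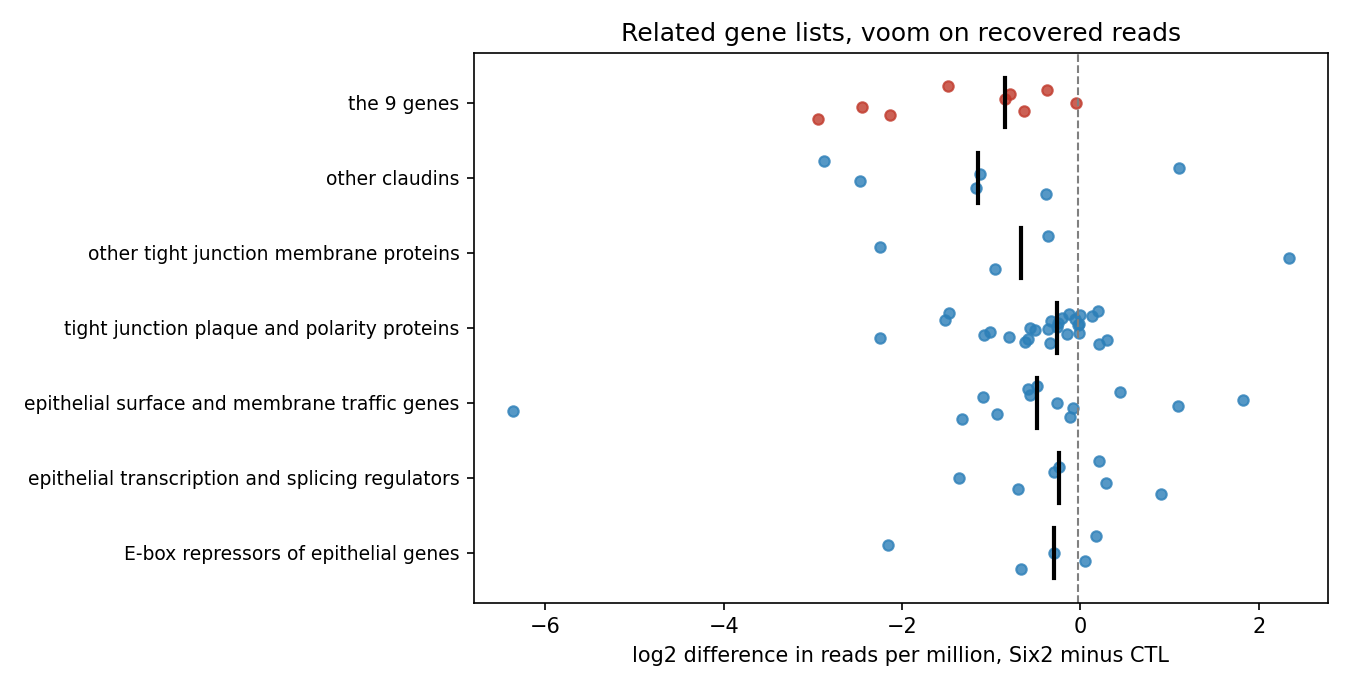
Log2 CPM difference between Six2 and CTL libraries for each gene with 10 or more reads in at least 2 libraries, by list, from voom on recovered reads. Black bars are list medians, -0.84 for the 9 genes and -1.15 for the other claudins, and the dashed line is the median of all 12451 genes, -0.03. The point at -6.36 is Cdh1.

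In the list of epithelial surface and membrane traffic genes 11 were tested and 0 passed, with 9 below 0 and a median log2(RPKM + 1) difference of -0.46. Both limma-trend and voom had 6 lower and 0 higher at an unadjusted p under 0.05, against 9.66% of all genes lower in limma-trend and 10.6% in voom. Of the 13 genes of this list with 10 or more reads in at least 2 libraries, 6 were lower and 3 higher without overlap. The corresponding shares of all 12451 such genes were 26.1% and 21.3%. The 3 higher genes were Spint1, Erbb3 and Myo5b, named after their values were seen. Spint1, which encodes a serine protease inhibitor, was at 23.5 and 19.8 RPKM in the Six2 libraries and 18.0 and 13.8 RPKM in the CTL libraries (limma-trend adjusted p = 0.321). The receptor gene Erbb3 was at 2.965 and 1.45 RPKM in the Six2 libraries and 0.998 and 0.838 RPKM in the CTL libraries (limma-trend adjusted p = 0.3). The myosin gene Myo5b was at 1.07 and 0.356 RPKM in the Six2 libraries and 0.248 and 0.101 RPKM in the CTL libraries (voom adjusted p = 0.36). Cdh1, which encodes E-cadherin, had the largest difference, at 0.186 and 0.103 RPKM in the Six2 libraries and 14.6 and 8.40 RPKM in the CTL libraries (limma-trend adjusted p = 0.0592). The tetraspanin gene Cd9 was at 142 and 99.8 RPKM in the Six2 libraries and 257 and 199 RPKM in the CTL libraries (adjusted p = 0.182). Cd24a and the serine protease gene Prss22 differed by -1.31 and -1.005 (adjusted p = 0.16 and 0.152).

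Regulators known to act on these genes were described in the same way, and 0 of 8 tested passed. In limma-trend, Snai1 was lower and Elf3 higher at an unadjusted p under 0.05. By voom, 1 was lower and 1 higher of 7 epithelial regulators, and 2 were lower and 0 higher of 5 repressors. Shares of all genes at that threshold were 9.66% lower and 7.36% higher in limma-trend, and 10.6% and 6.75% in voom. Without overlap, 2 of the 7 epithelial regulators were lower and 3 higher, and 2 of the 5 repressors were lower and 1 higher. The shares of the 12451 genes were 26.1% lower and 21.3% higher. Elf3, an epithelial ETS factor gene, was at 4.62 and 3.78 RPKM in the Six2 libraries and 2.19 RPKM in both CTL libraries (limma-trend adjusted p = 0.145), and it also lies on chromosome 1. Klf5 and Tfap2a differed by -0.25 and 0.195. Snai1, the Snail repressor gene, was at 26.5 and 31.5 RPKM in the Six2 libraries and 41.8 and 51.2 RPKM in the CTL libraries (adjusted p = 0.175). Zeb2 was at 13.1 RPKM in both Six2 libraries and 11.6 RPKM in both CTL libraries (adjusted p = 0.471), and Tcf3 and Tcf4 differed by 0.05 and -0.28. Snai2, Twist1 and Twist2 were listed at 0 in all 4 libraries and Zeb1 was under 0.1 RPKM, these being named after their values were seen.

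Over the 4 libraries, the profile of Tjp1 on the log2(RPKM + 1) scale, centred on its own mean, was nearest to those of Fosb, Ube2v2, Cdc42se2, Ethe1 and Usp44 outside the lists used. The Euclidean distances over 4 libraries were 0.0358 to 0.0513. Fosb was at 3.21 and 4.11 RPKM in the Six2 libraries and 4.82 and 4.77 RPKM in the CTL libraries.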

How the data were processed

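Polyadenylated RNA of 4 libraries (2 Six2, 2 CTL, grouped by title) was measured, with stranded mRNA libraries per the labels' protocols. The authors deposited RPKM values for 24421 genes. The submitters' processing notes name HTSeq 0.8.0 among the tools, TopHat2 2.1.1 with Bowtie2, and the build GRCm38. The annotation, gene lengths and strand setting of the counting are not stated there.

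Values stepped in whole reads. Reads came out whole, to within 0.001, for 14457 of the 14459 genes with values above 0 in at least 3 libraries. Steps cannot show a factor shared by reads and length. Read numbers of Cldn3 were multiplied by 3, which turns its length of 421 into 1263 bases, beside 1259 in GENCODE. Such a factor was looked for only in the genes chosen by symbol, so reads of other genes could be understated and some could miss the read filter. A count test had been planned as an alternative and is replaced by voom, since the table holds no counts. limma 3.58.1 in R 4.3.3 was fitted on group, without a replicate term, and tests were two-sided. A pseudocount of 1 understates changes of low genes. Intervals of reads (exact Poisson, 95%) cover counting error only. Coordinates are GENCODE annotation of GRCm38.

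Genes named from the related lists were the 4 of largest absolute difference and the 2 of highest mean among those tested, and any that passed; some of these are not reported here. The nearest profiles were 5 tested genes by Euclidean distance, without clone, model or pseudogene names. Members and lists were chosen with earlier results of these data known. Fits were also run on simulated data, without a shift shared by replicate numbers. Changes were planted only in genes with more reads than the low genes had, so that run does not show how the fits perform for those. Alternatives were a pseudocount of 0.1, no filter, a filter of 1 CPM in 2 libraries, TMM and RLE factors, a replicate block, chromosome medians removed, voom, and each library left out.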

Additional observations from a re-analysis of the deposited data

How the results depend on the processing

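Precision for the 7 low genes is limited by depth, since they had 6 to 152 reads a library, and by 2 libraries a group. The labels do not say that equal replicate numbers share a day or culture, so the numbers pair nothing by design. Across 10654 genes the difference between Six2 replicates correlated with that between CTL replicates at r = 0.818. With the replicate block the calls over all genes were 2506 lower and 2133 higher, 1 of the 9 genes passed lower (Tjp1, adjusted p = 0.00651), and in the related lists 25 passed lower and 6 higher. Voom with the replicate block called 3167 lower and 2502 higher, with 6 of the 9 genes lower (Cldn3, Cldn4, Epcam, Ocln, Tjp1 and Tjp3) and 31 lower and 10 higher in the related lists; the block changed no other call of the 9 genes.

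The calls over all genes, 9 lower and 3 higher, were 0 and 0 without a filter (limma-trend, 1528 lower and 975 higher at an unadjusted p under 0.05) and with voom (1314 lower and 840 higher), 29 lower with a filter of 1 CPM, 27 lower and 5 higher with TMM factors and 24 lower with RLE factors. Leaving out 1 library gave 9 to 50 lower and 2 to 18 higher, where dropping Six2 replicate 2 gave 50 and 18, Six2 replicate 1 gave 31 and 4, and CTL replicate 2 gave 25 and 6. Of the related lists 1 gene passed lower with the CPM filter, TMM and RLE factors each, and 1 to 3 with a library left out. Of the 9 genes, 2 to 6 were at least 2-fold lower with a library left out, 2 without CTL replicate 1 and 6 without CTL replicate 2. F11r, between -0.156 and 0.067 with a library left out, lay at 0.067 without CTL replicate 1 (voom 0.066) and at 0.056 without Six2 replicate 2 (voom 0.057). The cause of these changes was not tested. The planned edgeR and DESeq2 alternatives were not run.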
